A study of Mus musculus with 8 samples.

Results

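NAD+ is the coenzyme that carries electrons in metabolism and the substrate that sirtuins, poly(ADP-ribose) polymerases and NAD glycohydrolases break down, with nicotinamide released. Liver makes it from tryptophan (the de novo route), from nicotinic acid (the Preiss-Handler route) and from nicotinamide (the salvage route), and the routes pass through enzymes that add an adenylyl group. Sirt1, the gene deleted in the mutant mice of this study, encodes an NAD+-dependent deacetylase, and Nampt, the rate-limiting enzyme of salvage, is known in mouse liver as a gene that the circadian clock drives. The genes described here are the synthesis enzymes Nampt, Nmnat1, Nmnat3, Nadsyn1 and Qprt, the NAD kinase Nadk, and the enzymes Nnmt, Parp1, Cd38 and Acmsd, which draw nicotinamide, NAD+ or a precursor of it away.

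These 10 genes were chosen by name, and their members are all probe sets (groups of short oligonucleotides that read a transcript) whose platform annotation gives 1 of these symbols alone. Such probe sets were found for 8 of the 10 genes, among 18193 genes with a probe set of their own, and Cd38 and Acmsd were not analysed here. The 8 genes had 17 probe sets, and 6 genes had more than 1. Of the 17, 15 passed the filter on low signal (the brighter 50% of all probe sets by mean log2 signal), and each of the 8 genes kept at least 1.

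RNA of whole liver was measured on 8 one-colour Affymetrix Mouse Genome 430 2.0 arrays, 2 for each of 4 groups. The groups were Sirt1-/- mice (MT, labelled sirt1 KO) of 3 months and wild-type mice (WT) of 3, 12 and 19 months, all on a mixed 129/FVB/Black Swiss background, with liver taken in the morning. The deletion is germline, so every tissue of an MT mouse carries it, and the study notes that most MT embryos die, which makes the MT mice a surviving minority. The study's text counts more mice in a group than the 2 samples per condition of its methods and of these arrays, and does not settle if RNA was pooled, so p-values measure the spread between these arrays only, which may be technical. The signal is the MAS5 intensity, scaled by the authors to the same trimmed mean on each array. It is compared here within a probe set, never between probe sets. Only the summed signals of marker lists add several probe sets, and there the brightest weigh most. Differences are on the log2 scale of signals floored at 1, with limma's moderated standard error (SE), and a probe set was called at a Benjamini-Hochberg adjusted p under 0.05 over all 22519 probe sets tested. MT was compared with WT at 3 months, and the 2 later ages with 3 months and with each other. The comparisons against 3 months use the same 2 WT arrays, so they are not independent of each other.

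Array medians lay between 74.7 and 83.1, and log2 signals correlated about as well between groups (r from 0.909 to 0.922) as within them (0.913 to 0.926). The Sirt1 probe set read 615 and 713 on the MT arrays against 589 and 539 on the WT arrays of 3 months (log2 difference 0.23, limma adjusted p = 0.674). Where it lies relative to the deleted part is not known here, so it does not check the labels. Xist was above the 95th percentile on all 8 arrays (lowest 95.2) and the Y-linked genes at or below percentile 43.1, although the methods describe the mutant mice as males. All 11 measured hepatocyte markers of 13 listed were above the array median, with summed signals of 517730 to 540790 in MT and 480830 to 505530 in 3-month WT livers. In RNA of whole liver, fewer cells of a type and less RNA per cell cannot be told apart.

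Nampt, which makes nicotinamide mononucleotide from nicotinamide, was the 1 gene of the 8 with a called difference, and the difference was an increase in MT liver. Its probe set 1455320_at read 1972 and 2081 on the MT arrays, against 803 and 899.6 on the WT arrays of 3 months. It read 1034 and 1373 at 12 months and 945 and 1274 at 19 months. Both MT arrays lay above all 6 WT arrays, and both 3-month WT arrays lay below the 4 older ones. The MT level was 2.38-fold that of 3-month WT (log2 difference 1.25, SE 0.20, 95% interval 0.81 to 1.70, limma adjusted p = 0.0335). With any 1 of the 4 arrays compared left out, the log2 difference stayed between 1.17 and 1.34, but the adjusted p was 0.0900 or 0.117 without an MT array and 0.238 or 0.161 without a WT array. It was 0.133 when the variance trend was dropped.

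The other Nampt probe sets had the same direction and no call. Probe set 1417190_at read 1672 and 1382 in MT and 558 and 776 in 3-month WT livers, and it read 725 and 927 at 12 months and 824 and 1445 at 19 months. Its arrays separated MT from 3-month WT but array 2 of the 19-month group lay between the MT arrays. The log2 difference of MT was 1.21 (SE 0.28, 95% interval 0.58 to 1.83, limma adjusted p = 0.0974). The dim probe set 1448607_at, designed from the same source sequence as 1417190_at, read 155 and 98.8 in MT and 47.7 and 28.6 in 3-month WT livers, with 86.3 and 92.2 at 12 months and 48.4 and 96.0 at 19 months. It failed the filter on low signal and was below the array median on 3 of the 8 arrays, so its log2 difference of 1.75 between MT and 3-month WT has no test.

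The window around the Nampt start site in RefSeq (250 bases before it to 50 after it, GRCm38.p6, chr12:32820085-32820384, plus strand) is shown because Nampt carries the one called difference and is known as a clock-driven gene. Capitals mark the GC box GGGCGG, read on both strands.
Nampt: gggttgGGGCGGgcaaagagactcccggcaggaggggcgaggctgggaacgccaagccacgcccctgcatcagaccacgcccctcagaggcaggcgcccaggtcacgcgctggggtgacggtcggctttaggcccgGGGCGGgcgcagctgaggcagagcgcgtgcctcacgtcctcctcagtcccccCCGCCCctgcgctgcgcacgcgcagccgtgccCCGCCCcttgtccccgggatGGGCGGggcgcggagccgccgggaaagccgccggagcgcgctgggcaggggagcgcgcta
This window has 76.3% G and C and holds the GC box 5 times, a motif found in 35.7% of the 32851 windows of the same length. It holds the letters AGGTCA, the core of ROR and REV-ERB response elements, 1 time (16.3% of all windows). The clock motifs CACGTG (E-box, 7.15% of all windows) and TTATGTAA (D-box, 0.938%) were searched on both strands and their letters were not in this window, which says nothing of sites elsewhere. Windows were found for 9 of the 10 listed genes, Nnmt having no entry in the table, and among the others an E-box lay in that of Parp1 and in 1 of the 2 windows of Nadk. No D-box lay in any of the 11 windows.

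**Figure D1:**
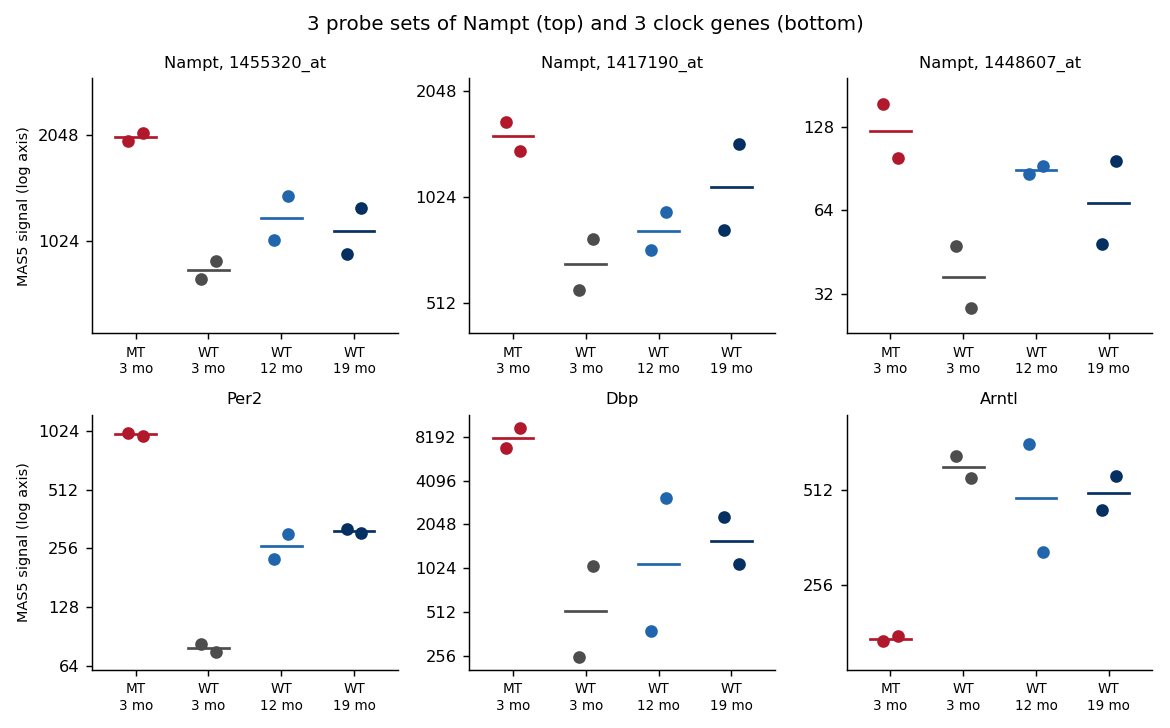
MAS5 signal on a log axis for the 3 probe sets of Nampt (top) and for the brightest probe sets of Per2, Dbp and Arntl (bottom) on each array (points), by group, with the geometric mean of the 2 arrays of a group (line). Nampt, Per2 and Dbp were higher on both MT arrays than on both 3-month WT arrays, and Arntl was lower.

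Clock genes were read on the same arrays, each by its brightest probe set, because Nampt is a clock output. Per2, a repressor of the clock, read 1004 and 967 in MT and 83.2 and 75.2 in 3-month WT livers, a log2 difference of 3.64 (limma adjusted p = 0.000463). These 3-month WT readings were dim, close to the medians of their arrays (79.6 and 81.9), so the size of the difference is uncertain. Dbp, a clock-driven transcription factor, read 6904 and 9385 in MT and 252 and 1060 in 3-month WT livers (log2 difference 3.96, limma adjusted p = 0.0918). Arntl, which encodes the activator BMAL1, read 170 and 176 in MT and 658 and 559 in 3-month WT livers (log2 difference -1.81, limma adjusted p = 0.0528). Of 14 tested clock genes, 1 was called in this comparison, beside 0.515% of all probe sets, and 11 had an unadjusted p under 0.05, beside 13.5% of all. The difference was above 0 for 9 of the 14 and below 0 for 5. Nr1d1 was among the 5, with 126 and 115 in MT and 287 and 250 in 3-month WT livers (log2 difference -1.15, limma adjusted p = 0.0903). At 19 months Per2 read 321 and 308 and was 1.99 log2 units above 3 months (limma adjusted p = 0.0296). Livers were taken within a morning window with no time given for a single mouse, and the part of clock phase or time of day in the Nampt difference was not tested.

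The genes whose log2 signal was most like that of Nampt 1455320_at over the 8 arrays were Dclre1a, a DNA crosslink repair nuclease (Pearson's r = 0.978), Naa50, an N-terminal acetyltransferase (0.970), and Dhx30, an RNA helicase (0.963), out of 19278 other tested probe sets with 1 symbol. All r values share the 4 groups and the 8 arrays and are descriptions. Dclre1a read 279.9 and 284 in MT and 96.8 and 129 in 3-month WT livers, which did not pass (limma adjusted p = 0.0689).

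**Figure D2:**
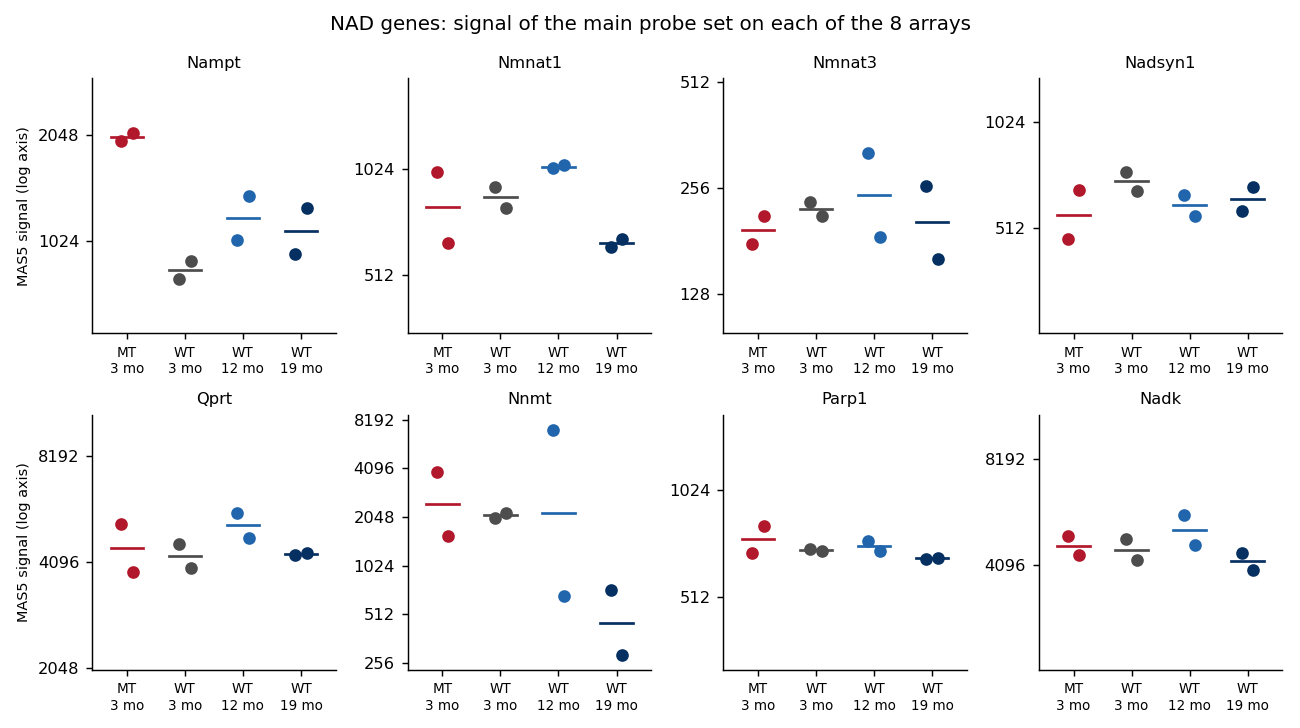
MAS5 signal on a log axis of the brightest probe set of each of the 8 genes on each array (points), by group, with the geometric mean of the 2 arrays of a group (line). The MT arrays stand above all others for Nampt, and Nnmt spreads most within the MT, 12-month and 19-month groups.

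Nmnat1 and Nmnat3 encode the nuclear and the mitochondrial enzyme that join nicotinamide mononucleotide to an adenylyl group, the last step of salvage. Nmnat1 1425773_s_at read 1005 and 632 in MT and 912 and 794 in 3-month WT livers, then 1027 and 1051 at 12 months and 616 and 648 at 19 months. The MT arrays lay on either side of the 3-month WT arrays, and the 19-month arrays lay below those of both other WT ages. The log2 difference was -0.10 for MT (95% interval -0.58 to 0.39) and -0.43 for 19 against 3 months (limma adjusted p = 0.469), and for 19 against 12 months it was -0.72 (SE 0.22, interval -1.21 to -0.23, limma adjusted p = 0.314). The second probe set, 1429819_at, had the opposite sign for 19 against 3 months. It read 255 and 348 in MT and 241 and 240.4 in 3-month WT livers, with 331 and 323 at 12 months and 327 and 263 at 19 months. All 6 of its other arrays lay above the 3-month WT arrays, and its log2 differences from them were 0.31 for MT, 0.44 for 12 months and 0.29 for 19 months (limma adjusted p of 0.596, 0.629 and 0.647).

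Nmnat3 1424899_at read 177 and 214 in MT and 233 and 214 in 3-month WT livers, with 322 and 186 at 12 months and 259 and 161 at 19 months. The MT arrays lay below the 3-month WT arrays by a very small margin, with a log2 difference of -0.20 (95% interval -0.92 to 0.53, limma adjusted p = 0.85). The pair of arrays at 12 months and that at 19 months differed more within themselves than the ages did from each other. The other Nmnat3 probe set was below the array median on all 8 arrays (2.24 to 48.2) and was not tested.

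Nadsyn1 encodes the synthetase that amidates nicotinic acid adenine dinucleotide, the last step of the de novo and Preiss-Handler routes. Its probe set read 475 and 655 in MT and 736 and 652 in 3-month WT livers, with 633 and 553 at 12 months and 570.3 and 669.8 at 19 months. Array 1 of the MT group was the lowest of the 8, and array 2 lay between the 3-month WT arrays. The log2 difference was -0.31 for MT (95% interval -0.77 to 0.14, limma adjusted p = 0.55), -0.23 for 12 months and -0.16 for 19 months against 3 months. A fall of up to 0.77 log2 units in MT is within this interval, as is a small rise.

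Qprt encodes quinolinate phosphoribosyltransferase, which brings the tryptophan route to nicotinic acid mononucleotide. Qprt 1418837_at read 5266 and 3849.6 in MT and 4602 and 3941 in 3-month WT livers, with 5631 and 4806 at 12 months and 4277 and 4352 at 19 months. The MT arrays enclosed the 3-month WT arrays, and the 12-month arrays were above all arrays of the other WT ages. The log2 difference was 0.08 for MT (95% interval -0.31 to 0.47), 0.29 for 12 months (-0.10 to 0.68) and 0.02 for 19 months (-0.37 to 0.41), none called. Its second probe set, from the same source sequence, overlapped between groups in each comparison against 3 months, with log2 differences of 0.05 for MT, 0.02 for 12 months and -0.21 for 19 months.

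Nadk encodes the cytosolic kinase that makes NADP+ from NAD+. Nadk 1416248_at read 4959.8 and 4361 in MT and 4844 and 4238 in 3-month WT livers, with 5669.7 and 4676 at 12 months and 4434 and 3976 at 19 months. The groups overlapped in each comparison against 3 months, with log2 differences of 0.04 for MT (95% interval -0.30 to 0.38), 0.18 for 12 months and -0.11 for 19 months. Nadk 1416249_at, from the same source sequence, read 1077 and 842 in MT and 896 and 602 in 3-month WT livers, with a log2 difference of 0.37 (interval -0.13 to 0.87, limma adjusted p = 0.51).

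Parp1 encodes the main poly(ADP-ribose) polymerase of the nucleus, which spends NAD+ at DNA breaks. Parp1 1435368_a_at read 682 and 814 in MT and 699.96 and 687 in 3-month WT livers, with 736 and 691 at 12 months and 653 and 659.99 at 19 months. The MT arrays enclosed the 3-month WT arrays, and the 19-month arrays lay just below them. The log2 differences were 0.10 for MT (95% interval -0.26 to 0.47), 0.04 for 12 months and -0.08 for 19 months. The 3 other Parp1 probe sets had log2 differences of 0.06, 0.23 and 0.19 for MT, and of 0.20, 0.36 and 0.41 for 19 months, opposite in sign to the brightest probe set at that age. None of the 4 was called in any comparison.

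Nnmt encodes nicotinamide N-methyltransferase, which methylates nicotinamide and so takes it from salvage. In the MT, 12-month and 19-month groups its arrays differed more than those of any other tested probe set of the 8 genes. Its probe set read 3857 and 1559 in MT and 2028 and 2172 in 3-month WT livers, with 7084 and 666 at 12 months and 722 and 287 at 19 months. The 12-month arrays differed 10.6-fold, the MT arrays 2.47-fold and the 19-month arrays 2.52-fold, whereas the 3-month WT arrays differed 1.07-fold. Both 19-month arrays lay below both 3-month WT arrays, and 1 of them was above the lower 12-month array. The log2 difference for 19 against 3 months was -2.21 (SE 0.91, 95% interval -4.25 to -0.17), which did not pass (limma adjusted p = 0.371). For MT it was 0.22 with an interval of -1.82 to 2.27, which leaves room for falls and rises of several-fold.

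**Figure D3:**
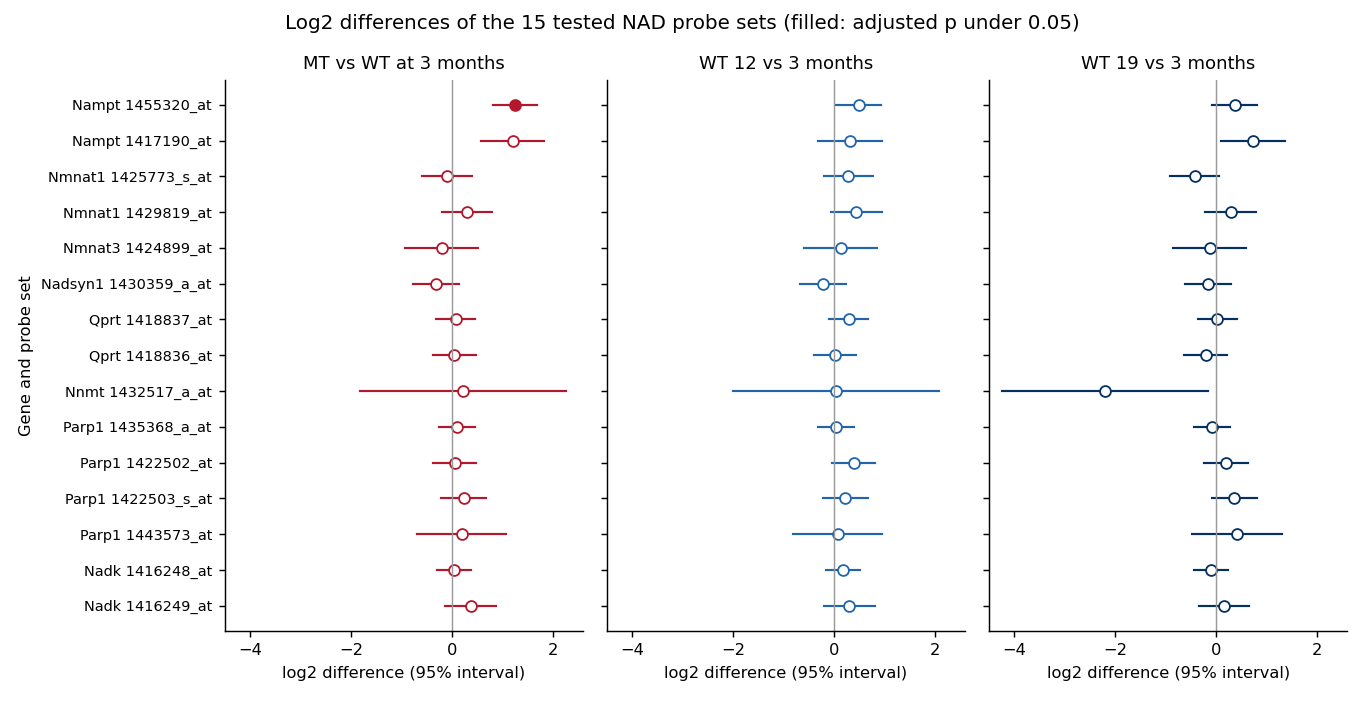
Log2 differences (points) with 95% intervals (lines) of the 15 tested probe sets of the 8 genes, MT against WT at 3 months (left), WT of 12 against 3 months (middle) and WT of 19 against 3 months (right). The filled point, Nampt 1455320_at in MT, is the 1 called probe set, and the interval of Nnmt is the widest.

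Of the 15 tested probe sets, 1 was called in MT against 3-month WT, where 0.515% of all 22519 probe sets were called (56 higher and 60 lower). Unadjusted p-values under 0.05 were found for 2 of the 15, both of Nampt, beside 13.5% of all probe sets. The arrays of the groups did not overlap for 4 of the 15 (3 higher, Nampt with both and Nmnat1 1429819_at, and 1 lower, Nmnat3 1424899_at), beside 45.7% of all. The median log2 difference of the 15 was 0.10, and that of all probe sets was 0.02. The first share rests on a single probe set, the unadjusted share was near the background, and the share without overlap was below it.

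In WT mice with age, none of the 15 probe sets was called. For 12 against 3 months 0 of 15 passed, beside 0.0133% of all, and 1 had an unadjusted p under 0.05 (Nampt 1455320_at, log2 difference 0.49, limma adjusted p = 0.539), beside 8.57% of all. The arrays did not overlap for 7 of 15 (6 higher and 1 lower), beside 40.1% of all, and 14 of the 15 values were above 0, with a median of 0.23 against -0.003 for all probe sets. The count of positive values is over probe sets that share arrays, and several share a gene. The 3′ and 5′ probe sets of pyruvate carboxylase, a measure of RNA integrity, differed by 4.54 to 5.86 log2 units on the arrays of 12 and 19 months and by 3.88 to 4.25 on the MT and WT arrays of 3 months. The same measure for actin was 1.23 to 1.31 on the older arrays and 0.97 to 1.48 on those of 3 months, and for Gapdh it was -0.46 to -0.34 and -0.62 to -0.38, overlapping in both. The part of RNA integrity in the age differences was not tested.

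For 19 against 3 months 0 of 15 passed, beside 0.0355% of all, and 2 had an unadjusted p under 0.05, beside 12.5% of all. These were Nampt 1417190_at (log2 difference 0.73, 95% interval 0.10 to 1.36, limma adjusted p = 0.345) and Nnmt. The arrays did not overlap for 8 of 15 (5 higher and 3 lower), beside 48.2% of all, and the median was 0.02, as for all probe sets. For 19 against 12 months 0 of 15 passed, beside 0% of all, and 2 had an unadjusted p under 0.05 (Nmnat1 1425773_s_at and Nnmt, both lower), beside 10.7% of all. Of the 15 values, 11 were below 0 and 4 above, with a median of -0.16 against 0.03 for all probe sets. In order of level, Nampt 1455320_at was highest in MT, then in WT of 12, 19 and 3 months, and the 12- and 19-month arrays overlapped (log2 difference -0.12 for 19 against 12 months, limma adjusted p = 0.879). Nampt 1417190_at had the 2 later ages in the other order, also with overlap (log2 difference 0.41, limma adjusted p = 0.637). The untested 1448607_at had the order of 1455320_at (-0.39).

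The wider NAD pathway was read from 68 other genes in lists of synthesis, transport and consumption, of which 62 were measured and 51 tested, by their brightest probe sets. In MT liver 1 of the 51 was called, higher, beside 0.515% of all probe sets, and 9 had an unadjusted p under 0.05, beside 13.5% of all. Their median log2 difference was -0.04, beside 0.01 over the brightest probe sets of all 10976 genes tested. With age 0 of the 51 were called in each of the 3 comparisons by limma, and unadjusted p-values under 0.05 were found for 6 for 12 against 3 months (beside 8.57% of all probe sets), 4 for 19 against 3 (12.5%) and 7 for 19 against 12 (10.7%).

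The called gene was Nudt19, listed with NAD transport and pyrophosphatases but known in mouse as a hydrolase of coenzyme A. It read 2589.9 and 2197 in MT and 1138 and 1272 in 3-month WT livers, with 1366 and 1227 at 12 months and 1715 and 1735 at 19 months. Both MT arrays were above all 6 WT arrays, and the 19-month arrays were above the other WT arrays. The log2 difference of MT was 0.99 (SE 0.15, limma adjusted p = 0.0282), and that of a second probe set was 1.15 (limma adjusted p = 0.0151). The call on the first probe set was lost without either MT array (0.0958 and 0.0562), either 3-month WT array (0.238 and 0.15) or either 19-month array (0.0586 and 0.0575).

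Next in MT by the size of the moderated t came Nt5e, the ecto-enzyme CD73 that turns nucleotides outside the cell into nucleosides. It read 2219 and 1329 in MT and 3602 and 4078 in 3-month WT livers, lower on both arrays but short of the threshold (log2 difference -1.16, limma adjusted p = 0.127). Slc25a51, which carries NAD+ into mitochondria, read 4273 and 3007 in MT and 1699 and 2361 in 3-month WT livers (log2 difference 0.84, limma adjusted p = 0.144). On these brightest probe sets neither gene overlapped between MT and 3-month WT. A second tested Nt5e probe set did overlap (178.6 and 114 in MT, 189.5 and 157 in 3-month WT livers), with a log2 difference of -0.27 (limma adjusted p = 0.789), and both other Slc25a51 probe sets had smaller differences of 0.50 and 0.47 (limma adjusted p of 0.385 and 0.357).

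With age the tested NAD genes of largest t were Sirt3, Aox3 and Aox1 at 12 months and Kmo, Nudt19 and Sirt7 at 19 months, none called. Sirt3, the mitochondrial deacetylase, read 3592 and 4311 at 12 months and 2465 and 2724 at 3 months (log2 difference 0.60, limma adjusted p = 0.297). Kmo, kynurenine 3-monooxygenase of the tryptophan route, read 3176 and 3082 at 19 months and 5063 and 4281 at 3 months, with no overlap (log2 difference -0.57, limma adjusted p = 0.19). For 19 against 12 months Kmo led again (log2 difference -0.58, limma adjusted p = 0.218), followed by Cyp2e1 and Aox3.

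By route, 7 genes of tryptophan-dependent synthesis had a median log2 difference of -0.26 in MT, with 4 below 0 and 3 above, and none called. For 19 against 12 months all 7 were below 0, with a median of -0.32 and 1 at an unadjusted p under 0.05. In that comparison 10 of the 11 hepatocyte markers were below 0 as well, with a median of -0.24 and 5 at an unadjusted p under 0.05, and their summed signal was 409500 to 438190 at 19 months and 477870 to 531760 at 12 months. The part of the hepatocyte share in this was not tested. The 8 tested genes of salvage and the Preiss-Handler route, Nampt among them, had a median of -0.12 in MT, with 6 below 0. The 7 sirtuins had 0 calls in MT and a median of 0.16, and the 15 tested ADP-ribosyl transferases had 0 calls and a median of 0.00. The other NAD glycohydrolases, Bst1 and Sarm1, were too dim to test.

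**Figure D4:**
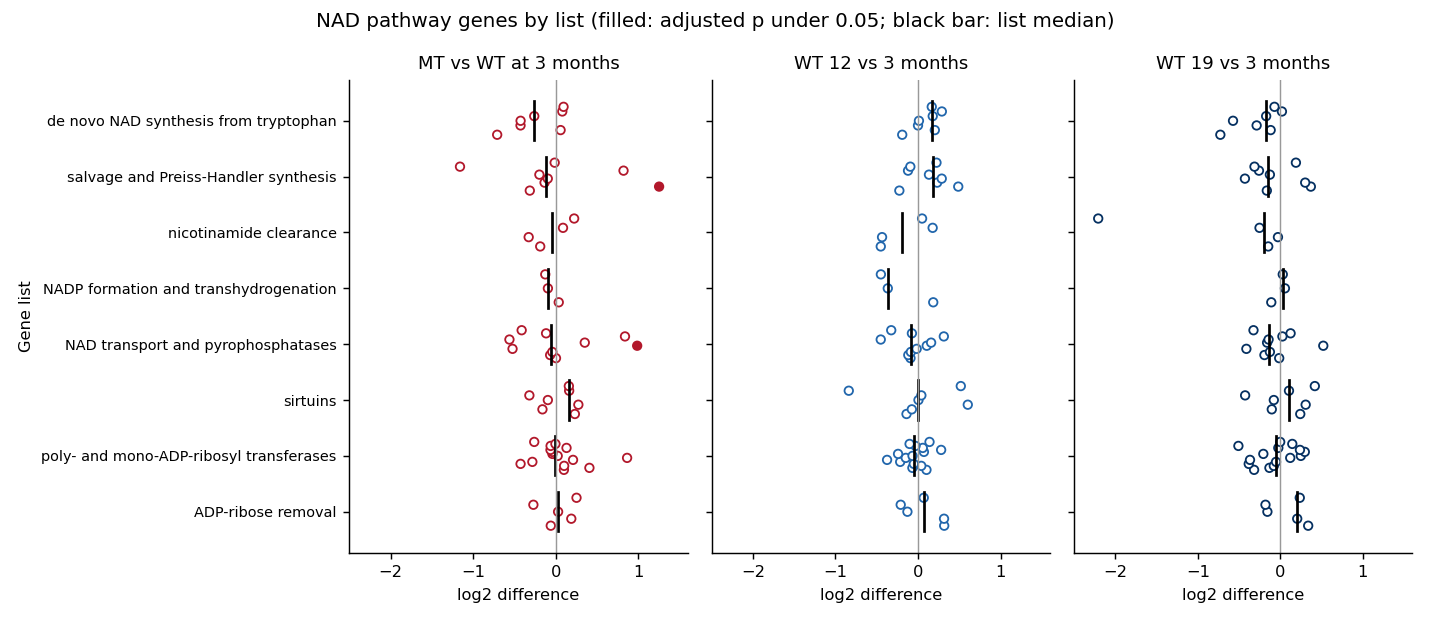
Log2 differences of the tested NAD pathway genes (points, 1 per gene, by its brightest probe set) in 8 lists, with list medians (bars), for MT against WT at 3 months (left) and WT of 12 (middle) and 19 months (right) against 3 months. Filled points, Nampt and Nudt19 in MT, were called.

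Nampt is also made by cells other than hepatocytes, neutrophils among them. The summed signal of the 7 measured neutrophil markers, of 9 listed, was 1213 to 1499 in MT and 854 to 958 in 3-month WT livers. It was 998 to 1187 in 12-month WT and 1696 to 2028 in 19-month WT livers. The granule genes Ltf and Camp were below the array median on all arrays. S100a8 and S100a9 gave most of this sum, and 3 of the 7 passed the filter on low signal, all 3 above 0 in MT. The dim Camp (6.51 and 13.3 in MT, 45.9 and 23.1 in 3-month WT livers) and Elane (26.1 and 13.5 in MT, 103 and 35.3 in 3-month WT livers) were lower in MT. The summed signal of the 11 Kupffer cell markers, all measured, was 20065 to 22855 in MT and 26256 to 27059 in 3-month WT livers, lower in MT, and it was 23093 to 24907 at 12 months and 30881 to 48817 at 19 months. That of the 11 measured T and NK cell markers, of 12 listed, was 691 to 696 in MT and 981 to 1179.9 in 3-month WT livers, with Cd4 and Ncr1 below the array median throughout. Of the 11, 6 passed the filter on low signal and 0 were called in MT. Of the 6, 5 were below 0, among them Gzma (65.5 and 47.5 in MT, 190 and 275 in 3-month WT livers). The 1 above 0 was Thy1 (92.6 and 104 in MT, 44.2 and 70.5 in 3-month WT livers). The 5 measured bile duct markers of 6 summed to 299 to 441 in MT and 219.8 to 229 in 3-month WT livers, higher in MT, with Cftr below the array median throughout. This is a sum of dim signals. Only Epcam passed the filter on low signal, and its arrays overlapped between MT and 3-month WT (log2 difference 0.335, limma adjusted p = 0.799). The 7 measured B and plasma cell markers of 9 summed to 1278 to 1899.6 in MT and 1231 to 1575 in 3-month WT livers. The sum was 3917 to 5073 at 12 months and 7854 to 8638 at 19 months, with Cd79a below the array median throughout. Ighm, Igha and Jchain gave most of the sums at these 2 ages. For 12 against 3 months, 4 of the 6 tested were above 0, and Cd79b (log2 difference -0.35) and Ms4a1 (-0.37) were below. Igha was the 1 of the 6 called (limma adjusted p = 0.00902), beside 0.0133% of all probe sets. For 19 against 3 months all 6 were above 0. The 7 endothelial markers summed to 7825 to 9832 in MT and 8982 to 10609 in 3-month WT livers, with 2 above 0 and 5 below 0 in MT. Stab2 read 647 and 726 in MT and 1446 and 1372 in 3-month WT livers (log2 difference -1.04, limma adjusted p = 0.0501). Lyve1 went the other way, with 472 and 602 in MT and 201 and 192 in 3-month WT livers (log2 difference 1.44, limma adjusted p = 0.0613). The 7 stellate cell markers summed to 18455 to 19016 in MT and 19171 to 19680.0 in 3-month WT livers. Dcn, the brightest, gave most of this sum. Of the 6 that passed the filter on low signal, 4 were above 0 and 2 below 0 in MT, with a median log2 difference of 0.13 and 0 called. The part of these cells in the differences of Nampt and of the other genes was not tested.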

How the data were processed

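RNA from 8 mouse livers or liver pools was measured on Affymetrix Mouse Genome 430 2.0 arrays (2 per group). The deposited values are MAS5 signal intensities, which the authors scaled so that the mean between the 2nd and 98th percentiles was 499.77 to 499.79 on each array (MAS5 version: not given in the sources used here). No detection calls were used. The table held 45101 probe sets, and 64 controls were left out. Of the 45037 others, 34945 had 1 symbol in the platform annotation, 932 several and 9160 none.

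Signals below 1 were set to 1, put on the log2 scale and not rescaled. The brighter 50% of probe sets (22519, with a mean log2 signal of at least 6.18) were fitted in 1 model of 4 groups with limma 3.58.1 in R 4.3.3 (lmFit, eBayes with trend; degrees of freedom 4 residual, 5.37 prior), two-sided, with Benjamini-Hochberg adjustment within each comparison. An exact permutation test of 2 against 2 arrays cannot go below p = 0.333 and was not used. The number of arrays limits the precision. The fit was also run on simulated data whose spreads were drawn from its own prior. That run checks the code and cannot show how well the model describes these arrays. Python 3.11.15, pandas 2.3.3, numpy 2.4.6 and matplotlib 3.10.9 were used for tables and plots.

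The genes, lists, tests and alternatives were chosen with earlier results of these data known. All probe sets of the members were named, as were other NAD genes that were called or among the 3 of largest moderated t in a comparison, and the 3 genes most correlated with a called member. Marker lists of endothelial, stellate, bile duct and B cells were also read. Alternatives were quantile normalization, an offset of 16, no filter, only the groups compared, no variance trend, the replicate number as a block, each array left out, other probe sets, and the methods' t-test. Promoter windows came from a RefSeq table (GRCm38.p6).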

Additional observations from a re-analysis of the deposited data

How the results depend on the processing

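In MT against WT at 3 months, 1 of the 15 probe sets was called, and 0 were called without the variance trend and 0 to 1 when 1 array was left out. With an unadjusted p under 0.05, 2 were counted in MT, 1 at 12 months, 2 at 19 months and 2 for 19 against 12 months. The methods' t-test (unadjusted, with a fold over 1.5) gave 2 in MT, both of Nampt, and 1 for 19 against 12 months (Nmnat1), and 0 in MT after Benjamini-Hochberg. Nampt in MT passed after quantile normalization, with an offset of 16, without the filter and with the 2 groups only (limma adjusted p of 0.0407, 0.0316, 0.031 and 0.03). The replicate numbers did not pair the arrays (correlations of deviations from -0.033 to 0.141); with the replicate block Nampt in MT had an adjusted p of 0.0181, and the count of calls stayed at 1. Over all probe sets, calls in MT numbered 116, but 9 without the variance trend and 13 to 255 with 1 array left out. For 12 against 3 months they numbered 3, but 0 without the trend, 12 with only the 2 groups and 0 to 20 with 1 array left out. For 19 against 3 months they numbered 8, but 1 without the trend, 135 with only the 2 groups, 25 with the replicate block and 2 to 30 with 1 array left out. For 19 against 12 months they numbered 0, but 3 without the filter, 5 with only the 2 groups and 0 to 11 with 1 array left out. The same t-test, with the filter used here, counted 890, 502, 750 and 524 in these comparisons, and 0 in each after Benjamini-Hochberg.

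Other probe sets of a gene reversed the sign of small differences that were not called: Nmnat1 in MT (0.31) and at 19 months (0.29), Qprt (-0.21), Nadk (0.16) and Parp1 (0.20, 0.36 and 0.41) at 19 months. With 1 array left out, the MT difference ranged from -0.43 to 0.24 for Nmnat1, -0.15 to 0.31 for Qprt, -0.43 to 0.88 for Nnmt, -0.025 to 0.23 for Parp1 and -0.059 to 0.13 for Nadk. The difference at 12 months ranged from -0.26 to 0.53 for Nmnat3, -1.66 to 1.75 for Nnmt and -0.0065 to 0.086 for Parp1, and that at 19 months from -0.47 to 0.22 for Nmnat3 and -0.093 to 0.13 for Qprt. Nnmt at 12 months was -1.66 without array 1 of that age. Nudt19 in MT had an adjusted p of 0.0524 with only the 2 groups compared and 0.127 without the variance trend. Of 372 log2 values under alternatives, 337 kept their direction and side of the threshold, 14 kept the direction but not the call, and 21 changed sign. The 14 were all of Nampt or Nudt19 in MT, and most of the 372 were of differences not called. Many alternatives could not move a log2 value: no filter, only the groups compared, no variance trend, the replicate block, or an array of another group left out. These counts therefore do not measure how stable the calls are. The causes of the changes were not tested.

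With 2 arrays per group, differences as small as those of most of these probe sets could not be told from none.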

Other observations

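The pattern of Nnmt over the 8 arrays was looked at because of its spread, after its values were seen. The genes of most similar log2 signal, among 19279 other tested probe sets with 1 symbol, were Prodh, proline dehydrogenase (Pearson's r = 0.977), Sike1 (0.976) and Rangrf (0.974), all sharing the same arrays. Prodh read 8403 and 6120.2 in MT and 6861 and 7412 in 3-month WT livers, with 9654 and 5835 at 12 months and 5715 and 4027 at 19 months. As for Nnmt, array 1 of the 12-month group was the highest of the 8 and array 2 of the 19-month group the lowest. Prodh was not called in any comparison (limma adjusted p of 0.995 for MT, 0.964 for 12 months and 0.407 for 19 months).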
